A study of Mus musculus with 6 samples.

Results

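Nr4a1 (Nur77) and Nr4a2 (Nurr1) are closely related orphan nuclear receptors, and their transcripts were followed here in CD4+ cells that were turning into regulatory T cells (Tregs) with or without steroid nuclear receptor coactivator 2 (SRC2, encoded by Ncoa2). The members were chosen by gene symbol from a gene table of the series, which gave 2 rows of 2387. They were chosen with their opposite directions in this comparison already known, so the values are a description and carry no test. The SRC2-targeted cells came from SRC2fl/fl/Foxp3YFP-Cre mice (the SRC2 conditional knockout, SRC2 cKO cells below) and the control cells from Foxp3YFP-Cre mice, with 3 libraries per genotype from different mice, bred on the C57BL/6j background and matched for age and sex. Mice outside the encephalomyelitis studies were 6 to 10 weeks old unless stated otherwise. Both genotypes carried the Foxp3YFP-Cre allele, which makes Cre only in cells that express Foxp3, so floxed Ncoa2 is to be lost only as Foxp3 comes on, and cells of the same culture that stay Foxp3-negative should keep it. No sort of the cells after polarization is described for these libraries. Naive CD4+ T cells from spleen were cultured for 36 hours with TGFβ at 5 ng/ml, stimulation through CD3 and CD28, and antibodies against IL-4 and IFNγ.

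NR4A receptors bind DNA as monomers or dimers. In known structures the space where other nuclear receptors hold a ligand is filled by side chains, and the amount of receptor is thought to set much of their activity. They are immediate-early genes: signals from the T cell receptor, through calcium, calcineurin and NFAT and through CREB and MEF2 factors, switch them on within hours, and their transcripts are short-lived. In T cells the family is known for inducing Foxp3 and for limiting activation. The study asked whether SRC2, recruited by NFAT1, raises Nr4a2, and the comparison of both genotypes addresses the transcript level of that gene and of its paralog.

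Each value below is the authors' mean of 3 libraries in CPM, read counts scaled to a fixed total per library. The values of single libraries were not analysed here, so no SD, no depth per library and no test between the genotypes can be given. The table is also a selected one: each of its 2387 rows had a deposited p-value under 0.05, so every gene in it differed between the genotype means by that criterion, and a gene outside it is counted here neither as changed nor as unchanged. The log2 ratio divides the SRC2 cKO mean by the control mean. A call here means a ratio past 1.4-fold in either direction, the fold the study used.

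Nr4a1 lies on the plus strand of chromosome 15 of GRCm38 from 101254269 to 101274795, and Nr4a2 on the minus strand of chromosome 2 from 57106830 to 57124003 (GENCODE M21). The bases upstream of their RefSeq transcription starts are shown because the study examined the promoter of Nr4a2. They cover only the proximal end of that promoter and not the distal elements that the study also examined. In its chromatin immunoprecipitation, the study detected SRC2 at those distal elements but not at the proximal regions. Signals of NFAT1 were likewise reported at the distal elements. Both stretches are written 5′ to 3′ on the strand of the gene and end just before the start. For Nr4a2 this RefSeq start is also where the GENCODE span above begins on its strand. For Nr4a1 the RefSeq start lies inside the GENCODE span, so its stretch does not precede the outermost annotated start. Capitals mark the CRE half-site TGACG, written CGTCA where it is on the other strand and known as part of the element bound by CREB, and the NFAT core GGAAA, written TTTCC on the other strand. Nr4a1 is chr15:101266596-101266845, plus strand, and Nr4a2 is chr2:57124004-57124253, minus strand, both from RefSeq on GRCm38.p6.
Nr4a1: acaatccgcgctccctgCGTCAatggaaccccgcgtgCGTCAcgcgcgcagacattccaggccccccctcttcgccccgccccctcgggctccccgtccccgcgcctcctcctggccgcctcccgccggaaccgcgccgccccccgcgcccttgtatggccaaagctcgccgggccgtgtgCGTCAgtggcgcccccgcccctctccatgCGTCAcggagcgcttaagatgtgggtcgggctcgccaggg
Nr4a2: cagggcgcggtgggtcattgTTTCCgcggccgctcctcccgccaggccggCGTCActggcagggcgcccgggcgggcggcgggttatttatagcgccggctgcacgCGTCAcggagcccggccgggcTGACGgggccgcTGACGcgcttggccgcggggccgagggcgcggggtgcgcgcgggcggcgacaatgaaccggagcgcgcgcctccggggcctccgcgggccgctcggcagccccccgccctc

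Both stretches held 4 CRE half-sites, on either strand, within 250 bases of the start. Of 32851 RefSeq promoter stretches of the same length, 17.8% held at least 1 half-site and 0.137% held 4 or more. All 4 half-sites of Nr4a1 belonged to the longer element TGCGTCA, which overlaps the half-site, was searched for after the sequence had been seen and was present in 1.75% of the stretches, while Nr4a2 had none. The NFAT core was found once in the stretch of Nr4a2, from 230 to 226 bases before the start, and not in that of Nr4a1, and 55.6% of all stretches held it. Neither stretch held the full CRE palindrome TGACGTCA (1.55% of all stretches) or the monomer element AAAGGTCA that NR4A receptors themselves bind (1.34%), each searched on both strands. G and C made up 74.4% of the Nr4a1 stretch and 80.0% of the Nr4a2 stretch, against a median of 52.4%. The half-site contains the bases CG, and its shares above are over all stretches, not over those equally rich in G and C. These are matches of letters in a short window, and no binding was measured in this comparison.

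**Figure D1:**
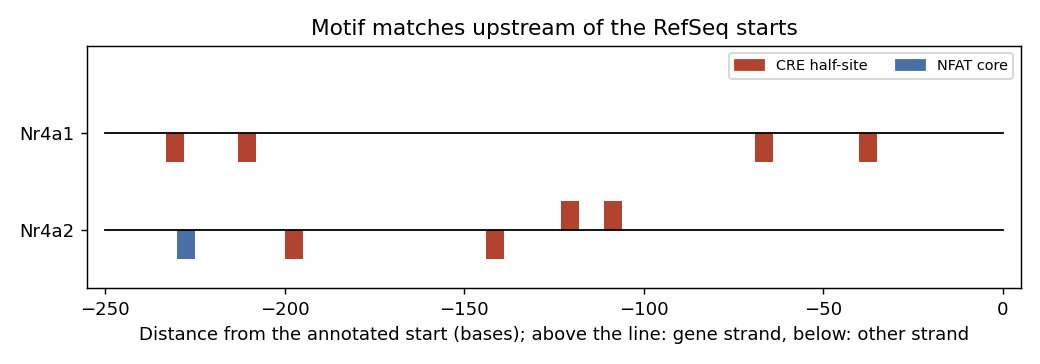
Matches of the CRE half-site (red) and the NFAT core (blue) in the 250 bases upstream of the RefSeq starts of Nr4a1 and Nr4a2, by distance from the start in bases, with matches on the gene strand above the line and those on the other strand below it. Each gene has 4 half-sites, and the NFAT core is found once, 230 bases before the Nr4a2 start.

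Because paralogs can share reads, their transcripts were compared before the levels. The coding sequences, 1803 bases long in Nr4a1 and 1794 bases in Nr4a2 without the stop codon, were identical at 65.0% of their aligned bases. The longest exact stretch shared by any of their GENCODE M21 transcripts was 14 bases long. A stretch of this length in exon 3 of both genes, where the zinc-finger DNA-binding domain is encoded, is shown in capitals within its exon, from chr15:101270903-101270969 on the plus strand and chr2:57111576-57111642 on the minus strand of GRCm38.
Nr4a1: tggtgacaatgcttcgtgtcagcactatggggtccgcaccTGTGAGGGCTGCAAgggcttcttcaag
Nr4a2: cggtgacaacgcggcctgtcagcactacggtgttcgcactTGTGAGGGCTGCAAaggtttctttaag
No stretch of 25 bases was common to both genes. Nr4a3, the third family member, which is not among the rows analysed here, shared at most 24 bases with Nr4a1 and 27 bases with Nr4a2, and no stretch of 50 bases with either. The read length was not given in the sources used here.

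Nr4a2 was the lower and Nr4a1 the higher gene in SRC2 cKO cells. Nr4a2 had 9.82 CPM in SRC2 cKO cells, against 25.7 CPM in control cells, so that 38.2% of the control level was left, a 2.62-fold lower mean and a log2 ratio of -1.39. Nr4a1 had 249 CPM in SRC2 cKO cells, against 137 CPM in control cells, a 1.81-fold higher mean and a log2 ratio of 0.86. Both ratios were past 1.4-fold, which 26.3% of the genes in the table passed as higher and 14.1% as lower. These directions chose the pair and are not evidence of their own. In cultures of mixed cells, fewer cells of a type and less RNA per cell cannot be told apart.

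In CPM, the gain of Nr4a1 was far larger than the loss of Nr4a2. Nr4a1 differed by 112 CPM and Nr4a2 by -15.9 CPM (SRC2 cKO minus control), so the sum of both was 259 CPM in SRC2 cKO cells, against 163 CPM in control cells, 1.59-fold higher. To compare levels between the genes, each mean was divided by the length of the longest protein-coding transcript, 2553 bases for Nr4a1 and 3568 bases for Nr4a2. On this scale Nr4a1 had 97.6 CPM per kilobase in SRC2 cKO cells and 53.8 in control cells. Nr4a2 had 2.75 CPM per kilobase in SRC2 cKO cells and 7.21 in control cells. Nr4a1 was thus the more abundant transcript of the pair in both genotypes, by 35.4-fold in SRC2 cKO cells and 7.45-fold in control cells. The amount of receptor protein was not measured in this comparison. The share of Nr4a2 in the pair was 2.74% in SRC2 cKO cells and 11.8% in control cells. The ratio of Nr4a1 to Nr4a2 was 4.76 times as high in SRC2 cKO cells as in control cells, a value that neither gene length nor scaling between the genotypes can move.

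**Figure D2:**
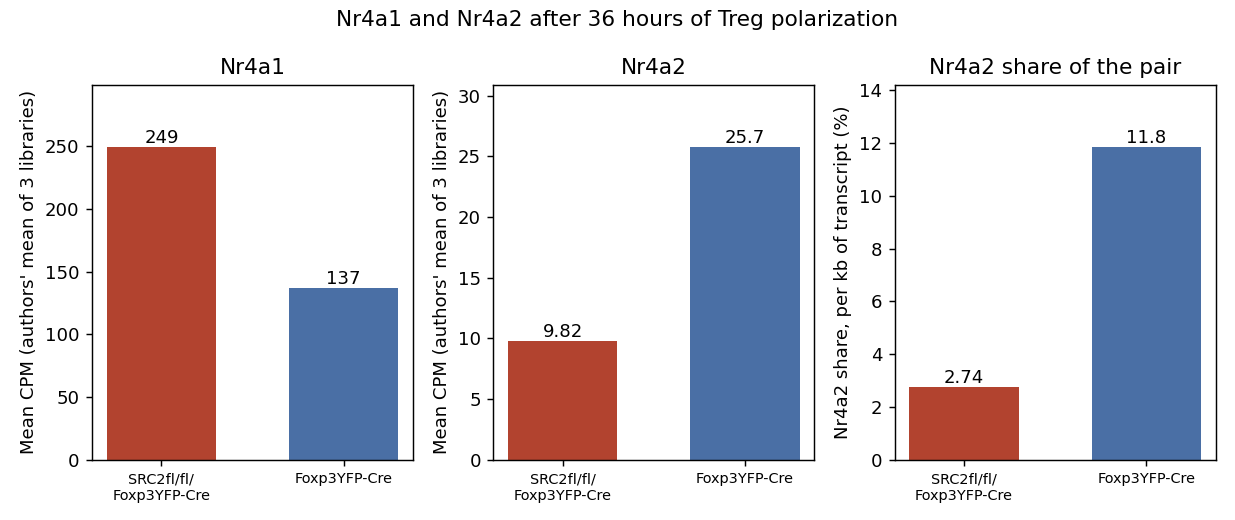
Authors' mean CPM of Nr4a1 (left) and Nr4a2 (middle) and the share of Nr4a2 in the pair per kilobase of transcript in percent (right), with SRC2 cKO (SRC2fl/fl/Foxp3YFP-Cre) cells in red and control (Foxp3YFP-Cre) cells in blue. Bars are means of 3 libraries with no error bar, since values per library were not analysed. Nr4a1 is higher (249 against 137 CPM), Nr4a2 is lower (9.82 against 25.7 CPM), and the vertical scales of the panels differ.

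The table leaned towards higher genes, with 69.2% of its rows higher in SRC2 cKO cells and a median log2 ratio of 0.33. Relative to that median, the log2 ratio was -1.72 for Nr4a2 and 0.53 for Nr4a1. Nr4a1 kept its direction and stayed past 1.4-fold, which on this scale 8.09% of all rows passed as higher. For Nr4a2 this was fixed in advance, since all rows that were lower as deposited, 30.8% of the table, passed 1.4-fold as lower on this scale. The split of all calls depended on this centring: higher genes made up 65.1% of the genes past 1.4-fold as deposited, 20.8% relative to the median, and 50.6% when each genotype was divided by its summed CPM over the table. Since the rows were selected by p-value, their median need not be that of all expressed genes.

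Genes of like abundance give the nearest scale for the size of both differences. Among the 864 other genes whose mean over both genotypes lay within 2-fold of that of Nr4a2, 75.6% were higher and 4 had a lower ratio than Nr4a2. Named after their values were seen, these were Erdr1, with a log2 ratio of -1.98, Emp1, a membrane protein, with -1.61, Nfil3, a transcriptional repressor, with -1.49, and Irs2, an adaptor of insulin and IL-4 signaling, with -1.39. Among the 321 other genes within 2-fold of Nr4a1, 59.8% were higher and 4 had a higher ratio. Of these, Dusp2, a nuclear MAP kinase phosphatase, had a log2 ratio of 1.10, Egr3, a factor induced by NFAT, 1.03, Ddit4, an inhibitor of mTORC1, 1.00, and Pdgfb, a growth factor, 0.94.

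The genes whose pair of genotype means lay closest to those of each receptor were then listed, by the Euclidean distance of the log2 mean CPM over the 2 group means. The gene nearest to Nr4a2 was Nfil3 (distance 0.07), with 9.59 CPM in SRC2 cKO cells, against 26.9 CPM in control cells. Rgs2, a regulator of G protein signaling, followed at 0.31 with 12.1 CPM in SRC2 cKO cells, against 26.7 CPM in control cells. Dusp14, a phosphatase that dampens T cell receptor signaling, Thbs1, a matrix protein that can activate latent TGFβ, and Tnnt2, a troponin of heart muscle, came next at 0.32, 0.33 and 0.36. The gene nearest to Nr4a1 was Ddit4 (distance 0.10), with 261 CPM in SRC2 cKO cells, against 130 CPM in control cells. Ptpn7, a phosphatase that acts on MAP kinases, lay at 0.23. Hmgcs1 and Idi1, enzymes of sterol synthesis, lay at 0.25 and 0.27. Over only 2 means such a distance describes level and ratio, and it is no measure of joint control.

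**Figure D3:**
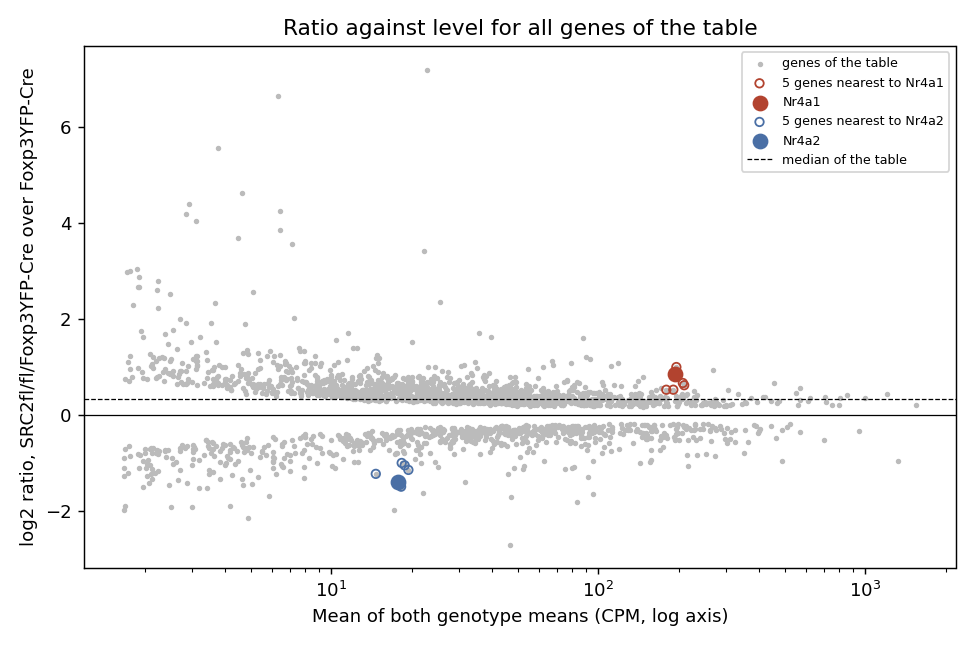
log2 ratio of SRC2fl/fl/Foxp3YFP-Cre over Foxp3YFP-Cre against the mean of both genotype means in CPM on a log axis, for all 2387 genes of the table (grey), with Nr4a1 (red), Nr4a2 (blue) and the 5 genes nearest to each (open circles). The dashed line is the median of the table, 0.33. The empty band around 0 widens at low CPM, and both receptors lie towards the outer edge at their abundance.

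Genes listed as immediate-early, the class to which both receptors belong, were found on both sides. Whether each listed gene is induced early in these cells was not measured in this comparison. Of 37 such genes listed without the NR4A family, 24 were in the table, of which 12 were higher and 12 lower, against 69.2% higher in the whole table. Past 1.4-fold, 8 were higher and 10 lower, against 26.3% higher and 14.1% lower past 1.4-fold in the whole table. Their median log2 ratio was -0.01, against 0.33 for the table, and relative to the table median 11 were higher and 13 lower. Fosl1, an AP-1 subunit, had the largest log2 ratio of the list, 2.66, but only 3.25 CPM in SRC2 cKO cells, against 0.513 CPM in control cells. Egr1, a zinc finger factor induced by receptor signaling, had 59.98 CPM in SRC2 cKO cells, against 19.3 CPM in control cells, a log2 ratio of 1.64. Its relatives Egr2 and Egr3, named after their values were seen, had log2 ratios of 1.00 and 1.03. On the lower side with Nr4a2, Klf4, a zinc finger factor that restrains proliferation, had the largest log2 ratio in size, -1.10. Klf2 with -1.09, Atf3, a stress-induced factor, with -0.98 and Klf6 with -0.86 followed, and these 3, like Dusp1, Fosl2, Btg1 and Btg2 below, were also named after their values were seen. Numbered relatives within this list lay on the same side in 3 families: Egr1, Egr2 and Egr3 were all higher, as were Dusp1 and Dusp2, and Klf2, Klf4 and Klf6 were all lower. This holds only within the list. Over the whole table the Dusp and Klf genes also formed pairs of opposite direction, and Dusp14, for example, was lower. Fosl1 and Fosl2, with log2 ratios of 2.66 and -0.45, lay on opposite sides, as did the antiproliferative genes Btg2 and Btg1.

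Upstream of the receptors, most listed genes of the calcium, calcineurin and NFAT pathway that were in the table were lower. Of 36 genes, 7 were in the table, 6 lower and 1 higher, and 1 was past 1.4-fold (table background, 30.8% lower and 14.1% lower past 1.4-fold). That gene was Dyrk2, a kinase that can prime NFAT for export from the nucleus, with 36.0 CPM in SRC2 cKO cells, against 65.7 CPM in control cells, a log2 ratio of -0.87. The NFAT kinases Gsk3b and Dyrk1a had log2 ratios of -0.40 and -0.32. Rcan1, an inhibitor of calcineurin that NFAT itself induces, was the 1 higher member with 0.36. Nfatc2, which encodes NFAT1, was not among the rows analysed. Nfatc3, the only NFAT factor with a row and named after its values were seen, had 241 CPM in SRC2 cKO cells, against 272 CPM in control cells, a log2 ratio of -0.17. Of 28 genes of the CREB, MEF2 and SRF factors and their regulators, 5 were in the table. Creb1 had 125 CPM in SRC2 cKO cells, against 87.0 CPM in control cells, a log2 ratio of 0.53. Srf had a log2 ratio of 0.31, which turns negative relative to the table median. Of these 5 genes 2 were higher and 3 lower, with 1 and 2 past 1.4-fold (table background, 69.2% higher and 26.3% higher past 1.4-fold). The lower ones were Sik1, a kinase that restrains CREB coactivators, with -0.53, the CREB coactivator Crtc3 with -0.50 and the SRF partner Elk4 with -0.45.

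Among the coactivators and corepressors of nuclear receptors, 7 of 29 listed genes were in the table, 6 of them lower and 1 lower past 1.4-fold, a share of those past 1.4-fold near the 14.1% of the whole table, of which 30.8% was lower. Ncoa2, the targeted gene, had 127 CPM in SRC2 cKO cells, against 164 CPM in control cells, a log2 ratio of -0.36. Of the control level 77.7% was left, in cultures in which only cells that had turned on Foxp3 were to lose it. In mean CPM of the whole gene, Nr4a2 was further below its control level than the targeted gene. These CPM do not separate the floxed part of Ncoa2 from the rest of the gene. They therefore do not measure how much SRC2 was lost. The ratio of Ncoa2 was short of 1.4-fold, and 484 genes of the table had a lower one. The study, in contrast, counts Ncoa2 among its most down-regulated genes. It also found Ncoa2 reduced by quantitative PCR, a measure unlike the CPM used here. Ppargc1b, a coactivator of mitochondrial genes, had a log2 ratio of -0.66, and the acetyltransferase Crebbp one of -0.39. Ncoa4, the only higher member, had 0.31, which turns negative relative to the table median. Of the 46 other nuclear receptors, 7 were in the table, with 4 higher and 3 lower, against 69.2% higher over all rows. Their median log2 ratio was 0.41, against 0.33 for the table. Past 1.4-fold, 2 were higher and 1 lower, against 26.3% higher and 14.1% lower in the whole table. Those past 1.4-fold included the clock repressor Nr1d1 with -0.87 and the mitochondrial regulator Esrra with 0.59. Rora, an orphan receptor, had 126 CPM in SRC2 cKO cells, against 176 CPM in control cells, a log2 ratio of -0.49 that was just short of 1.4-fold.

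Foxp3, a gene that NR4A receptors can activate directly, was lower, as was Nr4a2, whereas Nr4a1 was higher. What links these 3 transcripts was not tested. Foxp3 had 42.4 CPM in SRC2 cKO cells, against 82.5 CPM in control cells, so that 51.4% was left, against 38.2% for Nr4a2. Of 32 Treg genes, 14 were in the table, 9 lower and 5 higher, with a median log2 ratio of -0.37 against 0.33 for the table, and 6 were lower and 2 higher past 1.4-fold. Relative to the table median 12 were lower and 2 higher. The log2 ratio was -0.93 for Ikzf4 (Eos, a corepressor that acts with Foxp3), -0.63 for the costimulatory receptor Icos and 0.72 for the integrin Itgae. Of 30 genes tied to NR4A receptors in T cell tolerance and exhaustion, 9 were in the table, 5 higher and 4 lower, and 3 went past 1.4-fold in each direction. Over all rows 69.2% were higher, 26.3% were higher past 1.4-fold and 14.1% lower past 1.4-fold. Foxp3 and Ikzf4 are in both lists. Pdcd1, the inhibitory receptor PD-1, had 128 CPM in SRC2 cKO cells, against 57.3 CPM in control cells, a log2 ratio of 1.16. Il2, the T cell growth factor, had 132 CPM in SRC2 cKO cells, against 43.4 CPM in control cells, a log2 ratio of 1.61.

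All listed markers of other cell types that had a row were higher in SRC2 cKO cells, as was Nr4a1. Negative selection, by which the study purified the naive CD4+ T cells, is designed to deplete other cell types. Over all rows of the table, 69.2% were higher. Of 18 B cell markers 4 were in the table, all higher, with a summed level of 104 CPM in SRC2 cKO cells, against 62.4 CPM in control cells: Cd74 (log2 ratio 0.43), H2-Eb1 (1.02), H2-Aa (4.63) and H2-Ab1 (5.55). Of 22 myeloid markers only Lyz2 was in the table, with 45.4 CPM in SRC2 cKO cells, against 0.310 CPM in control cells. Of 11 dendritic cell markers 3 were in the table, Zbtb46 (0.65), Fscn1 (1.23) and Ccl22 (3.42), with a sum of 55.9 CPM in SRC2 cKO cells, against 11.0 CPM in control cells. Of 15 mast cell markers 3 were in the table, Il1rl1 (3.01), Mcpt2 (3.57) and Mcpt1 (4.04), with a sum of 22.1 CPM in SRC2 cKO cells, against 1.85 CPM in control cells. The B cell markers with a row are MHC class II genes and Cd74, which dendritic and some myeloid cells also express, and no marker specific to B cells had a row. Il1rl1, the IL-33 receptor, is also made by some Tregs. None of 10 markers of CD8 and NK cells was in the table, and of 17 T cell markers only Cd28 was, with 180 CPM in SRC2 cKO cells, against 256 CPM in control cells. Defining markers such as Cd79a, Csf1r, Cd3e and Cd4 have no row, so their levels are not known here and the labelled cell type could not be checked against them. The part of other cells in the level of Nr4a1 was not tested.

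Finally, the opposite directions of Nr4a1 and Nr4a2 were set beside other pairs of genes in the table whose symbols differ only in a final number, a naming pattern that often, but not always, marks relatives. There were 4555 such pairs from 230 stems, of which 33.9% went in opposite directions, so the opposite directions alone were not rare. The log2 ratios of Nr4a1 and Nr4a2 differed by 2.25, against a median difference of 0.46, and 19 pairs (0.417%) differed by more. By the largest pair of each stem, 7 stems were ahead of Nr4a. Without the zinc finger stem Zfp, which gave 3240 of the pairs, 31.2% of pairs were opposite and 8 pairs (0.608%) differed by more. The opposite pairs with the largest differences were Rab34 and Rab44, small GTPases of membrane traffic, with a difference of 3.50, the histone genes H3c1 and H3c10 with 3.24, and Fosl1 and Fosl2 with 3.11. In each of these pairs at least 1 gene had a mean of 3.25 CPM or less in both genotypes, whereas neither Nr4a gene did. The levels in the other pairs that differed by more are not given here, so this does not set the Nr4a pair apart from them. The Nr4a pair was chosen with its opposite directions known, and pairs of a stem share genes. These shares therefore describe the table and are no test.

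**Figure D4:**
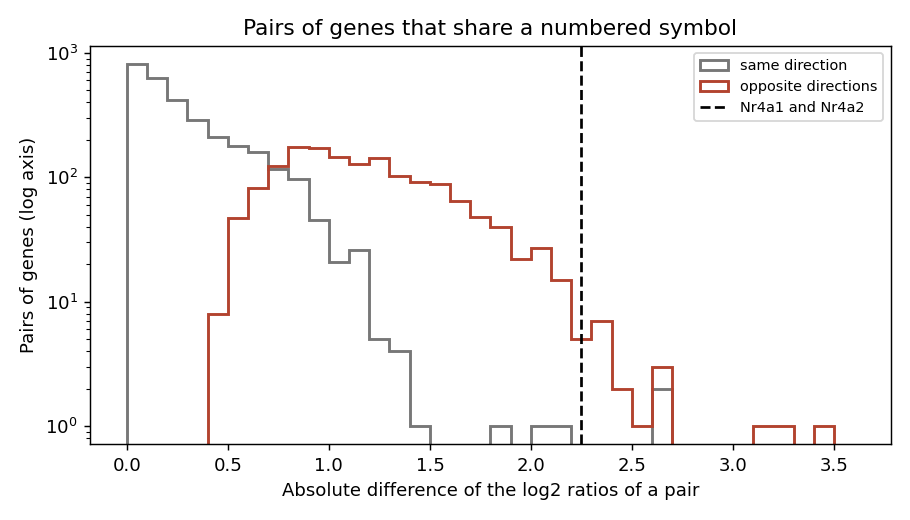
Number of gene pairs (log axis) by the absolute difference of their log2 ratios, for the 4555 pairs that share a symbol up to a final number, with pairs of opposite direction in red and pairs of the same direction in grey. The dashed line marks Nr4a1 and Nr4a2 at 2.25, which 19 pairs exceed.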

How the data were processed

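RNA-seq of 6 libraries was used, 3 per genotype. The authors aligned reads to GRCm38 and used the E/M algorithm of Partek for quantification. They normalized to CPM with 0.001 added and compared genotypes with the Partek GSA algorithm. Which aligner and annotation they used is not given in the sources used here. Their deposited CPM values are genotype means, and the deposited column of other totals is, for each of 2387 rows (relative tolerance 1e-06), both means added up and multiplied by 3, so it sums CPM over libraries. The deposited p-value column, below 0.05 in all rows, was read only for that selection. The authors' adjusted p-values, ratios and fold changes were not used.

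No test was run, because means carry no spread. Members and lists were chosen with earlier results of these data known. Named list genes are all members in the table for marker lists and lists with up to 6 members there, and otherwise the 4 largest log2 ratios in size, with exceptions stated. Some genes that this rule names are not reported here. Sequences are from RefSeq (GRCm38.p6) and GENCODE M21. Both members matched a promoter. Scripts were tested on simulated means. Alternatives were offsets of 1 and 5 CPM, 2 other scalings, length scaling, a minimum of 5 CPM and a fold of 2. Python 3.11.15, numpy 2.4.6, pandas 2.3.3 and Biopython 1.88 were used.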

Additional observations from a re-analysis of the deposited data

How the results depend on the processing

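No paired analysis was possible because only 1 mean per genotype was analysed, with no replicate numbers, and leaving out replicates was not run for the same reason. With no spread to judge by, a shift by 0.005 or more was counted as a move for a single value, and one by over 1.5 times for a count of genes. No alternative turned the direction of Nr4a1 or Nr4a2. An added offset cannot turn a direction, and neither of the other scalings could turn that of Nr4a2, since both lower every ratio. The log2 ratio of Nr4a1 was 0.84 with 5 CPM added, 0.53 relative to the table median and 0.77 relative to summed CPM. That of Nr4a2 was -1.31 with 1 CPM added, -1.05 with 5 CPM added, -1.72 relative to the median and -1.48 relative to summed CPM. Their difference was 2.16 with 1 CPM and 1.89 with 5 CPM added. The share of Nr4a2 in the pair was 3.79% in SRC2 cKO cells and 15.8% in control cells in CPM, 2.74% and 11.8% per kilobase of transcript, and 3.81% and 15.9% per kilobase of coding length, in the same order of genotypes. Genes past 1.4-fold numbered 627 higher and 336 lower, against 125 and 75 at a fold of 2, 193 and 735 relative to the median, and 527 and 256 with a minimum of 5 CPM. Opposite pairs made up 33.9% of all pairs and 31.2% without the Zfp stem, an alternative chosen after seeing the data. Depth per library is unknown, so the counting error of Nr4a2, the scarcer transcript of the pair, cannot be given.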
